A study of Mus musculus with 12 samples.

Results

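The 10 genes described here are the FGF receptor genes *Fgfr1*, *Fgfr2* and *Fgfr3*, the ligand gene *Fgf15*, and 6 genes that read out or feed back on the FGF-ERK pathway, namely the Sprouty genes *Spry1*, *Spry2* and *Spry4*, the ETS factor genes *Etv4* and *Etv5*, and the ERK phosphatase gene *Dusp6*. They were chosen by gene symbol for their place in the pathway, and each was read by 1 probeset of its own. They are 10 of the 14860 genes measured. RNA from the neocortex of mouse embryos at E14.5 (days of embryonic development) was hybridized to Affymetrix Mouse Exon ST arrays, with 1 embryo on each array. *Tbr1* KO embryos (4 arrays) were null for *Tbr1*, which encodes a T-box protein made in early-born projection neurons. In *Tbr2* cKO embryos (2 arrays), *Tbr2* (gene symbol *Eomes*), the T-box factor gene of intermediate progenitors, was deleted from floxed alleles (2F/2F) by *Nes11*Cre. This Cre acts in neural progenitors, so that cells of the tissue that do not descend from them keep the gene. *Tbr1/2* dKO embryos (3 arrays) carried both mutations, as *Tbr1*-/-;*Tbr2* 2F/2F;*Nes11*Cre. Controls (3 arrays) were wild type for *Tbr1* and had an unrecombined *Tbr2* gene. The sources used here do not give whether controls and *Tbr1* KO embryos carried floxed alleles or Cre.

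FGF ligands bind receptor tyrosine kinases at the cell surface, and adaptors on the receptor switch on RAS, which starts the kinase relay from RAF through MEK to ERK. Active ERK raises transcription of the ETS factor genes of the PEA3 group, *Etv4* and *Etv5*, and also of its own brakes, the Sprouty genes and *Dusp6*. The RNA of these genes is therefore widely used as a readout of FGF-ERK activity. In the mouse neocortex the receptors are made chiefly by radial glia, the progenitors next to the ventricle, and FGF signalling is known to keep radial glia dividing and to set the positions of cortical areas along the rostrocaudal axis.

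Promoter windows are shown for *Etv5*, on which the results turn, and for *Dusp6*, the only one of the genes searched here whose window held a motif. They run from 250 bases before to 50 bases after an annotated start and come from RefSeq (GRCm38.p6), read 5′ to 3′ on the strand of the gene. The search covered 8 windows of 6 of the 10 genes. The other 4, *Fgfr1*, *Fgf15*, *Spry4* and *Etv4*, were not searched. The motifs were the T-box half-site AGGTGTGA, its core GGTGTG, the ETS motif CCGGAAGT and its core CGGAAG, on both strands. Each core is contained in its longer motif. Capitals mark the motif letters found, and a match here describes letters only.
Etv5, minus strand, chr16:22438319-22438618: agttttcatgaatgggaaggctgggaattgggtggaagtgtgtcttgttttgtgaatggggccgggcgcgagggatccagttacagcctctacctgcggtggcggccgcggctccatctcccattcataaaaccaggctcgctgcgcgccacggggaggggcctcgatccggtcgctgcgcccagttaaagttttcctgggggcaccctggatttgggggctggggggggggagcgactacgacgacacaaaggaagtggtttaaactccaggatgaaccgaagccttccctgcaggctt
Etv5, minus strand, chr16:22439521-22439820: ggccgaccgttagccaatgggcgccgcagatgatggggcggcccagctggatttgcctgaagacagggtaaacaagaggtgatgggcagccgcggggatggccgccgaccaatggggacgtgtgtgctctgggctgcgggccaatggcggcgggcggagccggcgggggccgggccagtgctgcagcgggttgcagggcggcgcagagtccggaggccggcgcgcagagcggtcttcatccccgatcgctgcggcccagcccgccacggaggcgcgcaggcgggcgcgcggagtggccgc
Dusp6, plus strand, chr10:99262981-99263280: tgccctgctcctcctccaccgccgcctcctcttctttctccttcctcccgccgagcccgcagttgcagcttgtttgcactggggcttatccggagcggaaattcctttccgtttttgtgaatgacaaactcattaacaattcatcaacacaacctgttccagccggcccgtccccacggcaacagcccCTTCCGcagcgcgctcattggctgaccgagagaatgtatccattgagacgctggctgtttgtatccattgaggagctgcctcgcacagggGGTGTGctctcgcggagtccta
The *Dusp6* window held GGTGTG, with its first base 28 bases past the start, and the ETS core on the opposite strand, 62 bases before the start. These cores occur in 19% (GGTGTG) and 16.9% (CGGAAG) of all 32851 windows, and the longer motifs in 1.28% (AGGTGTGA) and 3.89% (CCGGAAGT). Neither *Etv5* window held any of the 4 motifs. G and C made up 60% and 74% of the *Etv5* windows and 57.3% of the *Dusp6* window.

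Values are on the log2 scale, so that a difference of 1 is a doubling, and levels of different genes cannot be set against each other because each has its own probes. *Tbr1* lay at 9.76 to 10.06 in *Tbr1* KO and 9.52 to 9.69 in *Tbr1/2* dKO, against 10.88 to 11.01 in controls, and *Tbr2* lay at 8.20 to 9.19 in *Tbr2* cKO and 8.37 to 8.65 in *Tbr1/2* dKO, against 11.70 to 12.13 in controls. The sources used here do not give whether these probes lie in the deleted parts. Markers of projection neurons (11 measured, *Tbr1* among them) had means of 11.57 to 11.69 in controls, 11.10 to 11.32 in *Tbr1* KO, 11.17 to 11.32 in *Tbr2* cKO and 10.65 to 10.97 in *Tbr1/2* dKO, and markers of radial glia (17 measured) 11.25 to 11.42, 11.28 to 11.48, 11.43 to 11.45 and 11.45 to 11.57. Markers of the meninges, the membranes over the cortex (14 measured), set 2 arrays apart. Their mean was 8.52 in *Tbr2* cKO replicate 1 and 8.58 in *Tbr1/2* dKO replicate 1, against 7.39 to 7.73 in the other 10 arrays. The former also had the highest mean of cortical hem and choroid plexus markers (16 measured), 8.73 against 7.26 to 8.18. *Pax6*, a gene of radial glia and, per the study, of many intermediate progenitors too, was called higher in *Tbr1/2* dKO by 0.53 (adjusted p = 0.0034, limma). Results that rest on the 2 arrays set apart are given with and without them. In bulk tissue, fewer cells of a type and less RNA per cell cannot be told apart.

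*Etv5* was the only gene of the 10 to pass the test in any comparison, and its lowest values were those of the embryos in which *Tbr2* was deleted. In *Tbr1/2* dKO it stood at 0.51 times the control level. *Etv4* was lowest in *Tbr2* cKO and *Fgfr2* was highest in *Tbr1/2* dKO, but neither passed the test. No difference of the Sprouty genes, *Fgfr1* or *Fgfr3* passed it either, and *Fgf15* and *Dusp6* varied mostly among the 3 *Tbr1/2* dKO embryos.

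**Figure D1:**
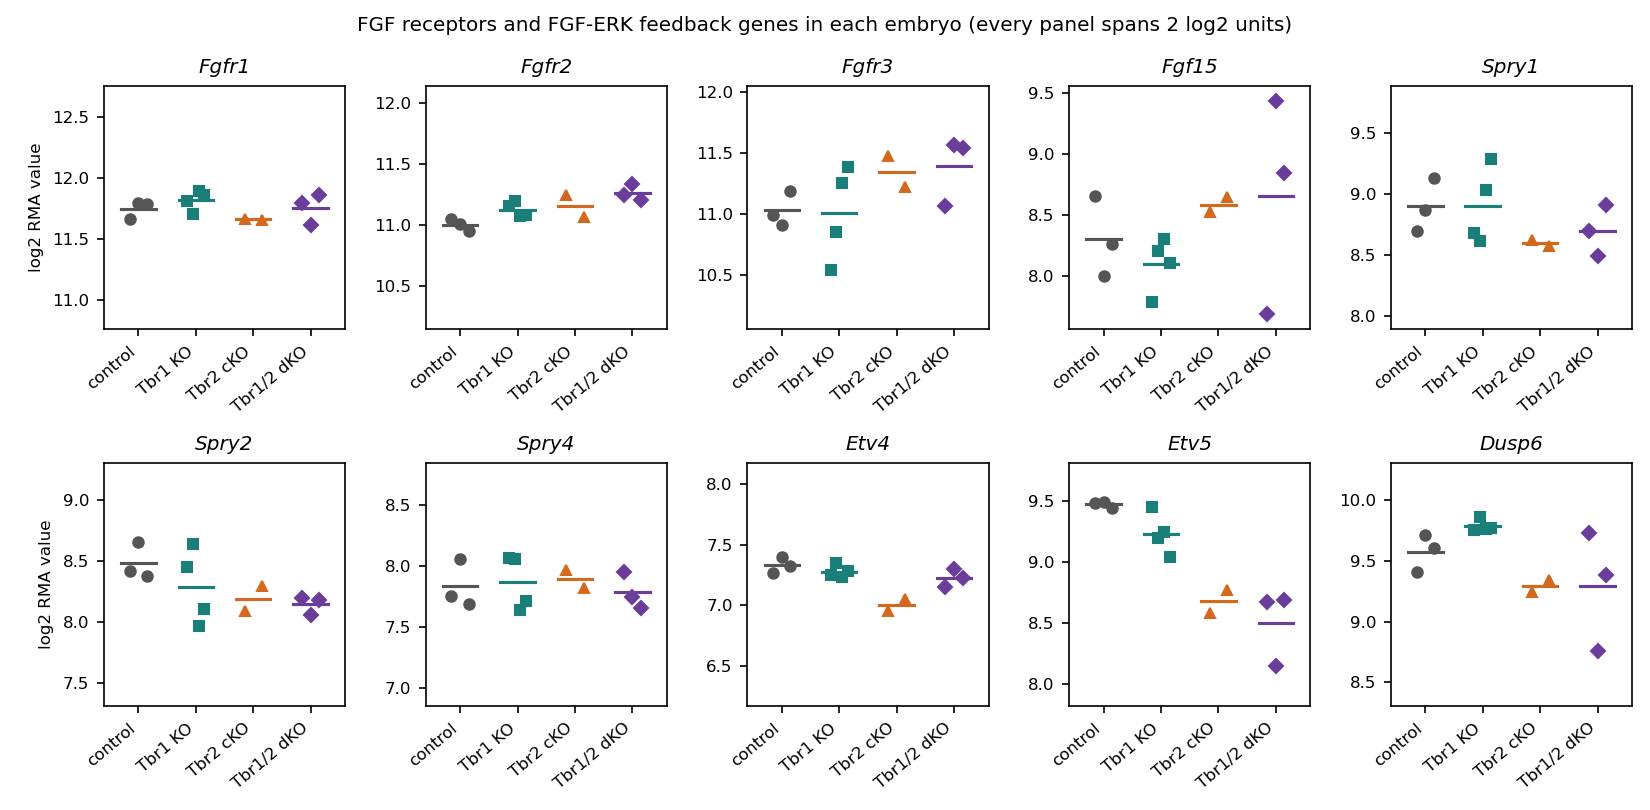
Log2 RMA value of each of the 10 genes (vertical axis, every panel spanning 2 log2 units) in each embryo, by genotype (horizontal axis); points are single arrays and bars are group means. *Etv5* fell into a higher set, with controls and *Tbr1* KO at 9.04 to 9.49, and a lower set, with *Tbr2* cKO and *Tbr1/2* dKO at 8.15 to 8.77, and *Fgf15* and *Dusp6* were most widely spread in *Tbr1/2* dKO.

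The 3 comparisons with controls use the same 3 control arrays, and so their values are given side by side only. Calls were made with limma where p, adjusted by Benjamini-Hochberg over all 14860 genes, was under 0.05. In *Tbr1* KO against control, 0 of the 10 genes were called, where 0.619% of all genes were, and 0 had p under 0.05 before adjustment, where 6.51% of all genes did. In *Tbr2* cKO, 0 were called against 0.653% of all genes, and 2 genes, both lower, reached the unadjusted threshold against 10%. For *Tbr1/2* dKO, 1 gene was called lower against 3.11% of all genes, and 1 higher and 1 lower reached the unadjusted threshold against 12.3%. With so few genes, these shares describe the set and do not set it apart from all genes. The median log2 difference over the 10 genes was -0.0074 for *Tbr1* KO, -0.18 for *Tbr2* cKO and -0.075 for the double mutant, beside -0.0054, -0.013 and 0.011 over all genes. The median size of the difference, whatever its sign, was 0.099, 0.29 and 0.27 over the 10 genes, beside 0.063, 0.083 and 0.079 over all genes.

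**Figure D2:**
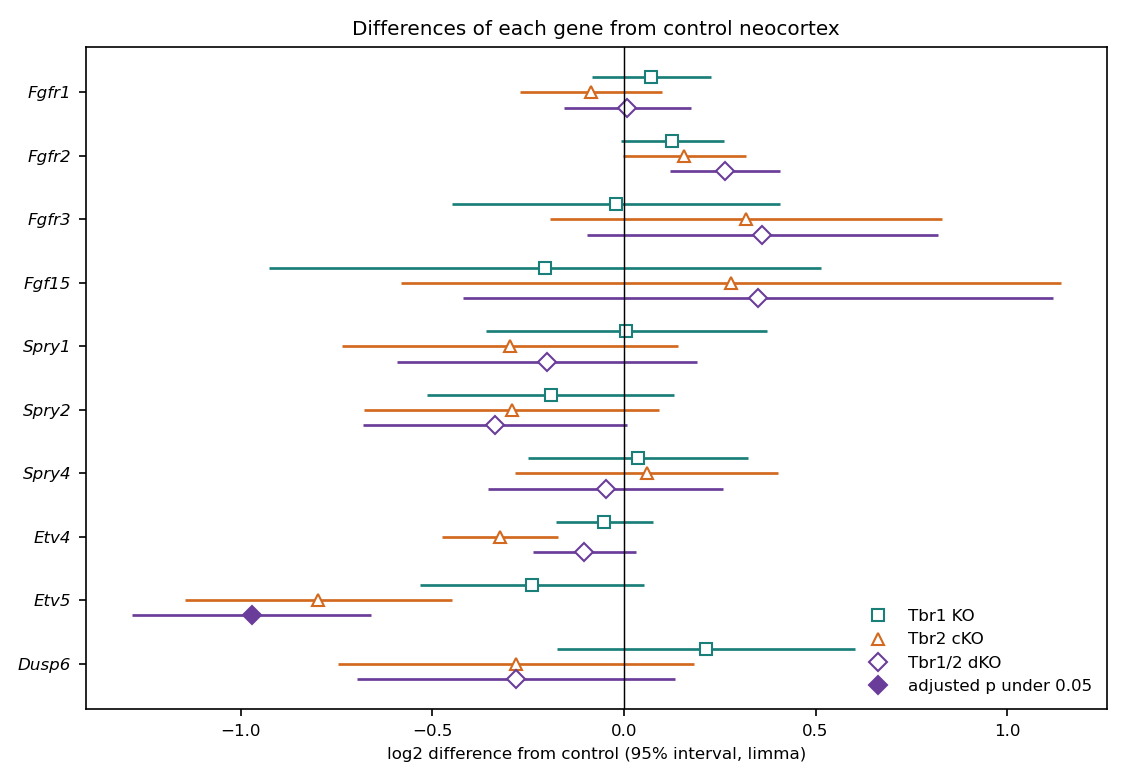
Log2 difference of each gene from controls in the 3 mutants (horizontal axis, points), with 95% intervals from limma (bars); a filled point is an adjusted p under 0.05. The only filled point is *Etv5* in *Tbr1/2* dKO at -0.97, and the *Tbr2* cKO point of the same gene lies at -0.80.

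The mutants were also compared with each other, in the same fit. In *Tbr1/2* dKO against *Tbr1* KO, 1 of the 10 genes was called, lower, where 1.24% of all genes were called (185, and with the replicate number as a block 77, with 0 of the 10), and 1 higher and 2 lower reached an unadjusted p under 0.05, where 10.9% of all genes did. For *Tbr1/2* dKO against *Tbr2* cKO, 0 were called against 0.108% of all genes, and 1 was higher at the unadjusted threshold against 6.22%. In *Tbr2* cKO against *Tbr1* KO, 0 were called against 0.585%, and 3 were lower at the unadjusted threshold against 12.5%. The value in *Tbr1/2* dKO departed from the added effects of the single mutants, by the call, for 0 of the 10 genes against 0.0269% of all genes, and 1 gene reached the unadjusted threshold against 3.43%. Any difference among the 4 genotypes was called for 1 gene against 2.27%, and 3 reached the unadjusted threshold against 12.7%.

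*Etv5* encodes a PEA3 group ETS factor induced by ERK. Controls read 9.49, 9.49 and 9.44, and *Tbr1* KO embryos 9.45, 9.19, 9.25 and 9.04. *Tbr2* cKO embryos read 8.58 and 8.77, and *Tbr1/2* dKO embryos 8.68, 8.15 and 8.69. The arrays without *Tbr2* deletion and those with it do not overlap, and the lowest value is that of *Tbr1/2* dKO replicate 2. The order of the means was control, *Tbr1* KO, *Tbr2* cKO and *Tbr1/2* dKO, from 9.48 ± 0.027 (SD, n = 3) through 9.24 ± 0.17 (n = 4) and 8.68 ± 0.13 (n = 2) to 8.50 ± 0.31 (n = 3). Embryos of control and *Tbr1* KO overlap, as do those of *Tbr2* cKO and *Tbr1/2* dKO.

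*Etv5* was lower in *Tbr1/2* dKO than in controls, with a log2 difference of -0.97 (SE 0.14, 95% interval -1.28 to -0.66, adjusted p = 0.0031, limma), with 3 of 3 embryos below all controls. It was called lower under all 24 alternatives in processing, with adjusted p from 0.0012 to 0.031. Without the 2 arrays of high meningeal markers the difference was -1.06 (adjusted p = 0.0098). The difference from *Tbr1* KO was -0.73 (SE 0.13, adjusted p = 0.027, limma), again with all dKO embryos below. This call is less firm: over the alternatives the adjusted p ran from 0.013 to 0.14, and it was 0.068, 0.066 and 0.068 without *Tbr1* KO replicates 1, 2 and 3 in turn. With the replicate number as a block it was lost (-0.80, adjusted p = 0.062). Without the 2 arrays of high meningeal markers it was 0.048.

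In *Tbr2* cKO, *Etv5* was 0.58 times the control level, a log2 difference of -0.80 (SE 0.16, 95% interval -1.15 to -0.45), and just missed the threshold (adjusted p = 0.055, limma; 0.0067 to 0.48 over the alternatives). It passed when *Tbr1/2* dKO replicate 2 was left out of the fit (adjusted p = 0.0069). Without the 2 arrays of high meningeal markers, which leaves 1 *Tbr2* cKO embryo, the difference was -0.70 (adjusted p = 0.48). In *Tbr1* KO it was -0.24 (SE 0.13, adjusted p = 0.87), with an interval from -0.53 to 0.052. *Tbr1/2* dKO differed from *Tbr2* cKO by -0.17 (interval -0.52 to 0.18, adjusted p = 0.97), and from the added effects of both single mutants by 0.066 (interval -0.39 to 0.52, adjusted p = 1.0). The test of any difference among the genotypes was passed (adjusted p = 0.0093). The means of the projection neuron markers given above are lower in all mutants than in controls, most in *Tbr1/2* dKO, where 5 of 11 were called lower, and this mean went with *Etv5* within genotypes (r = 0.75 over 12 arrays, a description). Group means of these markers were 11.22 in *Tbr1* KO and 11.24 in *Tbr2* cKO, and those of *Etv5* were 9.24 and 8.68. Interneuron and subpallial markers (8 measured) had means of 9.14 to 9.37 in controls, 8.93 to 9.47 in *Tbr1* KO, 8.97 to 8.99 in *Tbr2* cKO and 8.74 to 9.13 in *Tbr1/2* dKO, where 1 was called lower. Intermediate progenitor markers (10 measured, *Tbr2* among them) had a median difference from control of -0.063 in *Tbr1* KO, and of 0.28 in *Tbr2* cKO. It was 0.33 in *Tbr1/2* dKO, where 4 were called higher and 1 lower. Blood markers (3 measured) also went with *Etv5* within genotypes, in the opposite direction (r = -0.74, a description). The part of these lists in the result was not tested.

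The genes most like *Etv5* over the 12 arrays were *Dtx1* (Pearson's r 0.98, Spearman's rho 0.95), *Lzts1* (0.97 and 0.97) and *Stk32b* (0.97 and 0.97), given as a description. Since the arrays fall into the 2 sets described, the correlation was also taken of deviations from the genotype means, where it was 0.83, 0.90 and 0.88. *Dtx1* encodes a Deltex protein of the Notch pathway.

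*Etv4*, the other PEA3 group gene measured here, was lowest in *Tbr2* cKO. It read 7.27, 7.39 and 7.32 in controls, 7.25, 7.35, 7.23 and 7.28 in *Tbr1* KO, 6.95 and 7.06 in *Tbr2* cKO, and 7.15, 7.30 and 7.23 in *Tbr1/2* dKO. Both *Tbr2* cKO embryos lie below all other arrays, whereas the *Tbr1/2* dKO embryos overlap with controls. The signal of *Etv4* is dim, with a mean of 7.23 over all arrays beside a median of 8.745 over the means of all genes. No detection call was made. The difference of *Tbr2* cKO from control was -0.32 (SE 0.068, 95% interval -0.475 to -0.17) and did not pass (unadjusted p = 0.00063, adjusted p = 0.073, limma; 0.025 to 0.61 over the alternatives). The difference of *Tbr1/2* dKO from control was -0.10 (interval -0.24 to 0.032, adjusted p = 0.57). *Tbr1/2* dKO stood above *Tbr2* cKO by 0.22 (SE 0.068, unadjusted p = 0.0082, adjusted p = 0.56), and above the added effects of both single mutants by 0.27 (SE 0.089, unadjusted p = 0.011, adjusted p = 1.0). Without the 2 arrays of high meningeal markers the difference of *Tbr2* cKO from control was -0.27 (adjusted p = 0.61). *Etv1*, the remaining gene of the group, was not analysed here.

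*Dusp6* encodes a cytoplasmic phosphatase that switches ERK off. Controls read 9.41, 9.71 and 9.60, and *Tbr1* KO embryos 9.75, 9.86, 9.76 and 9.77. *Tbr2* cKO embryos read 9.24 and 9.34, and *Tbr1/2* dKO embryos 9.73, 8.75 and 9.39. All *Tbr1* KO embryos lie above all controls and both *Tbr2* cKO embryos below them, while the *Tbr1/2* dKO embryos span nearly the whole range. Against *Tbr1* KO, *Dusp6* differed by -0.50 in *Tbr1/2* dKO (SE 0.18, unadjusted p = 0.017, adjusted p = 0.31, limma) and by -0.49 in *Tbr2* cKO (SE 0.20, unadjusted p = 0.031, adjusted p = 0.34), neither past the threshold. The former was -0.23 without *Tbr1/2* dKO replicate 2 and -0.72 without replicate 1. Against controls the differences were 0.21 (*Tbr1* KO), -0.28 (*Tbr2* cKO) and -0.28 (double mutant), with adjusted p of 0.64 to 0.95. The last value also moved with single embryos, being -0.014 without *Tbr1/2* dKO replicate 2 and -0.50 without replicate 1.

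The Sprouty genes encode inhibitors that act between the receptor and ERK, and none was called in any comparison. *Spry2* lay at 8.37 to 8.65 in controls, 7.96 to 8.64 in *Tbr1* KO, 8.08 to 8.29 in *Tbr2* cKO and 8.06 to 8.20 in *Tbr1/2* dKO. All embryos of the latter pair of genotypes lie below all controls, with differences of -0.29 (interval -0.68 to 0.092, adjusted p = 0.65, limma) and -0.34 (interval -0.68 to 0.0078, adjusted p = 0.42). *Spry1* lay at 8.69 to 9.13 in controls, 8.62 to 9.29 in *Tbr1* KO, 8.58 to 8.62 in *Tbr2* cKO and 8.49 to 8.91 in *Tbr1/2* dKO. *Spry4* ranged from 7.64 to 8.06 over all arrays, with each genotype overlapping with the next. The largest difference of *Spry1* from control was -0.30 in *Tbr2* cKO (adjusted p = 0.70), and of *Spry4* 0.059 in *Tbr2* cKO (interval -0.28 to 0.40, adjusted p = 0.95). Both *Tbr2* cKO embryos lay below all controls in *Spry1*, but not in *Spry4*.

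Among the receptors, *Fgfr2* was lowest in controls and highest in *Tbr1/2* dKO. It read 11.05, 11.004 and 10.95 in controls, 11.15, 11.19, 11.08 and 11.08 in *Tbr1* KO, 11.25 and 11.07 in *Tbr2* cKO, and 11.25, 11.34 and 11.21 in *Tbr1/2* dKO. Every mutant embryo lies above every control, and every *Tbr1/2* dKO embryo above every *Tbr1* KO embryo. The difference in *Tbr1/2* dKO was 0.26, or 1.20 times the control level (SE 0.065, 95% interval 0.12 to 0.41), and did not pass (unadjusted p = 0.0020, adjusted p = 0.059, limma; 0.025 to 0.19 over the alternatives). It was 0.13 in *Tbr1* KO (interval -0.0088 to 0.26, adjusted p = 0.81) and 0.16 in *Tbr2* cKO (interval -0.0028 to 0.32, adjusted p = 0.51), and its departure from their sum was -0.020 (interval -0.23 to 0.19). Without the 2 arrays of high meningeal markers, the difference in *Tbr1/2* dKO was 0.27 (adjusted p = 0.12).

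*Fgfr3*, a receptor gene known for higher expression in caudal cortex, varied most of the receptors within a genotype. Its values were 10.99, 10.91 and 11.18 in controls, 10.54, 10.85, 11.26 and 11.39 in *Tbr1* KO, 11.47 and 11.22 in *Tbr2* cKO, and 11.07, 11.56 and 11.54 in *Tbr1/2* dKO. The *Tbr1* KO embryos alone span 10.54 to 11.39, with replicates 1 and 2 below replicates 3 and 4. In the same order of replicates, the means of the projection neuron markers were 11.31, 11.32, 11.10 and 11.16, and those of the intermediate progenitor markers 10.84, 10.88, 10.95 and 11.01. The means of the radial glia markers were 11.30, 11.28, 11.46 and 11.48, and those of the cortical hem and choroid plexus markers 7.52, 7.48, 8.03 and 8.18. Over all 12 arrays, r of *Fgfr3* with these 4 lists within genotypes was -0.81, 0.80, 0.71 and 0.50, given as a description. Their part in the spread was not tested. The difference from control was 0.32 in *Tbr2* cKO (interval -0.19 to 0.83, adjusted p = 0.74, limma) and 0.36 in *Tbr1/2* dKO (interval -0.097 to 0.82, adjusted p = 0.56). *Fgfr1* was the steadiest, at 11.62 to 11.90 over all 12 arrays, and its largest difference from control was -0.086 in *Tbr2* cKO (interval -0.27 to 0.099, adjusted p = 0.83). The widest bounds of its 3 intervals against controls were -0.27 and 0.23.

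*Fgf15*, an FGF ligand gene transcribed by cortical progenitors in mice, was the most variable of the 10 genes. It read 8.65, 7.996 and 8.26 in controls, 7.78, 8.20, 8.31 and 8.11 in *Tbr1* KO, 8.52 and 8.64 in *Tbr2* cKO, and 7.68, 9.43 and 8.84 in *Tbr1/2* dKO. The lowest and the highest of the 12 arrays are both *Tbr1/2* dKO embryos, and the low one, replicate 1, is an array of high meningeal markers. The difference of *Tbr1/2* dKO from control was 0.35 (interval -0.42 to 1.12, adjusted p = 0.79, limma). It was 0.83 without replicate 1 (adjusted p = 0.094) and -0.042 without replicate 2. Against *Tbr1* KO the difference was 0.55 (adjusted p = 0.60), and without replicate 1 of *Tbr1/2* dKO it was 1.04 and was called (adjusted p = 0.0495; 0.0495 to 0.97 over the alternatives). Without replicate 2 it fell to 0.16 (adjusted p = 0.97). Without both arrays of high meningeal markers it was not called (1.04, adjusted p = 0.084). In *Tbr1* KO and *Tbr2* cKO the differences from control were -0.21 (adjusted p = 0.97) and 0.28 (adjusted p = 0.89).

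*Fgf15* and *Dusp6* went in opposite directions over the embryos. Of the 45 pairs among the 10 genes, 4 had a Benjamini-Hochberg adjusted p under 0.05 over the pairs (two-sided permutation test of Pearson's r, 100000 permutations). The permutations shuffled all arrays without regard to genotype, so differences between genotypes enter the p-values of every pair. The values within genotypes have no p-value. For *Fgf15* and *Dusp6*, r was -0.89 (p = 0.00025, adjusted p = 0.011) and Spearman's rho -0.71 (p = 0.013, adjusted p = 0.11). Leaving out *Tbr1/2* dKO replicates 1 and 2, the arrays farthest from the median of *Fgf15*, gave r = -0.79, and deviations from the genotype means gave -0.88. The 2 *Tbr1/2* dKO embryos at the ends thus show it most, and the control highest in *Fgf15* was the lowest in *Dusp6*. In *Tbr1* KO and in *Tbr2* cKO, however, the embryo lowest in *Fgf15* was also the lowest in *Dusp6*.

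**Figure D3:**
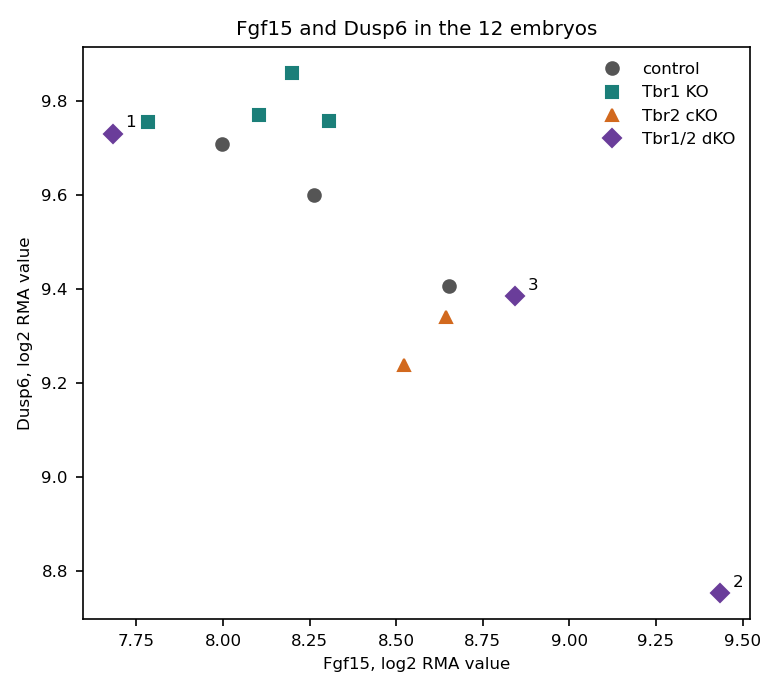
Log2 RMA values of *Fgf15* (horizontal axis) and *Dusp6* (vertical axis) in the 12 embryos, marked by genotype; the numbers are replicates of *Tbr1/2* dKO. Replicate 2 lies at 9.43 and 8.75 and replicate 1 at 7.68 and 9.73, at the ends of the range of *Fgf15*.

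*Fgfr3* and *Spry2* were also opposed, with r = -0.76 (permutation p = 0.0039, adjusted p = 0.043), rho = -0.86 (p = 0.00060, adjusted p = 0.027), -0.80 without the 2 farthest arrays and -0.74 within genotypes. *Fgfr1* and *Spry1* went together, with r = 0.78 (permutation p = 0.0030, adjusted p = 0.043), rho = 0.78 (p = 0.0037, adjusted p = 0.056), 0.69 without the 2 farthest arrays and 0.78 within genotypes. The remaining pair, *Fgfr2* and *Etv5*, has no pooled value here because *Etv5* falls into separate sets, and within genotypes its r was -0.39. The arrays share their normalization, and *Spry1*, *Spry2*, *Spry4*, *Fgfr1*, *Fgfr2* and *Fgfr3* all separate *Tbr1* KO replicates 1 and 2 from 3 and 4. Within genotypes, r with the radial glia marker mean was 0.78 (*Fgfr1*), 0.97 (*Spry1*), 0.71 (*Fgfr3*), -0.67 (*Spry2*), -0.026 (*Fgf15*) and 0.19 (*Dusp6*), as a description. In the same order, it was 0.0335, -0.33, -0.81, 0.74, -0.64 and 0.70 with the projection neuron marker mean. With the meningeal marker mean it was 0.24, 0.12, -0.19, -0.021, -0.72 and 0.57. The part of these markers in the pairs was not tested.

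The wider pathway was described with 9 lists, by role, that hold 82 measured genes beside the 10. In *Tbr1/2* dKO against control, 3 of the 82 were called higher and 2 lower (6.10%, beside 3.11% of all genes), with a median log2 difference of 0.023 beside 0.011 over all genes. In *Tbr1* KO none of the 82 was called by limma, where 0.619% of all genes were. An unadjusted p under 0.05 was reached by 5 higher and 2 lower, and by 6.51% of all genes. In *Tbr2* cKO none of the 82 was called either, where 0.653% of all genes were. The unadjusted threshold was reached there by 4 higher and 8 lower, and by 10% of all genes. *Dusp4*, which encodes a nuclear phosphatase of MAP kinases, was higher in *Tbr1/2* dKO. It read 11.30, 11.42 and 11.59 in controls, 11.98, 11.63, 11.76 and 11.65 in *Tbr1* KO, 11.91 and 12.07 in *Tbr2* cKO, and 12.14, 12.03 and 12.08 in *Tbr1/2* dKO. Every mutant embryo thus lies above every control. The difference was 0.65 in *Tbr1/2* dKO (SE 0.10, adjusted p = 0.0047, limma), called under all 24 alternatives, 0.55 in *Tbr2* cKO (adjusted p = 0.061) and 0.31 in *Tbr1* KO (adjusted p = 0.35). *Dusp14*, another phosphatase gene of the same list, ran the other way, at -0.53 in *Tbr1/2* dKO (SE 0.11, adjusted p = 0.029, called under 17 of 24 alternatives) and -0.49 in *Tbr2* cKO (adjusted p = 0.16), but 0.040 in *Tbr1* KO. Like *Etv5*, it was also called lower in *Tbr1/2* dKO than in *Tbr1* KO (-0.57, adjusted p = 0.029), a call that held under 16 of 24 alternatives. It was lost without *Tbr1* KO replicates 2, 3 or 4 (adjusted p = 0.061, 0.058 and 0.071), control replicate 2 (0.052), or *Tbr1/2* dKO replicates 2 or 3 (0.094 and 0.083), and with the replicate number as a block (0.15). The call against controls was lost with that block (0.10) and without any 1 of the controls (0.058 to 0.11) or *Tbr1/2* dKO replicates 2 or 3 (0.093 and 0.071).

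Of the 10 Sprouty, Spred and other inhibitor genes, *Flrt3* was called higher and *Spred2* lower in *Tbr1/2* dKO. *Flrt3* encodes a membrane protein that binds FGF receptors and, in frog embryos, promotes rather than inhibits FGF signalling. It lay at 10.81 to 11.20 in controls, 11.38 to 11.45 in *Tbr1* KO, 11.39 and 11.43 in *Tbr2* cKO and 11.44 to 11.57 in *Tbr1/2* dKO, so that every mutant embryo lies above every control. Its difference in *Tbr1/2* dKO was 0.48 (SE 0.089, adjusted p = 0.012, limma, called under 22 of 24 alternatives but not without *Tbr1/2* dKO replicate 3, adjusted p = 0.053), beside 0.38 in *Tbr1* KO (adjusted p = 0.0997) and 0.38 in *Tbr2* cKO (adjusted p = 0.17). *Spred2*, whose product restrains the step from RAS to RAF, differed by -0.36 in *Tbr1/2* dKO (SE 0.078, adjusted p = 0.030). That call held in 13 of 24 alternatives and was lost when its probesets were averaged (-0.26, adjusted p = 0.11) or when any 1 control array (0.053 to 0.13) or *Tbr1/2* dKO replicates 2 or 3 (0.10 and 0.084) were left out.

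Among 10 genes of the RAS-ERK cascade, *Map2k1*, a gene of the ERK kinase MEK, was called higher in *Tbr1/2* dKO by 0.34 (SE 0.073, adjusted p = 0.031, limma). This call held under 15 of 24 alternatives. It was lost without any 1 of the controls (0.086 to 0.11), *Tbr1/2* dKO replicates 2 or 3 (0.067 and 0.12) or *Tbr1* KO replicate 3 (0.0505). *Map2k2*, also a gene of MEK, differed by -0.044 (adjusted p = 0.85, limma). Without the 2 arrays of high meningeal markers, *Map2k1* and *Spred2* were not called (0.37, adjusted p = 0.069, and -0.40, adjusted p = 0.060), while *Dusp4*, *Flrt3* and *Dusp14* were. The other lists had no gene beside the 10 that was called. Of 16 secreted ligand genes, *Fgf15* among them, the smallest p in *Tbr1/2* dKO was that of *Fgf18*, with a difference of -0.76 (adjusted p = 0.056, limma; 0.014 to 0.17 over the alternatives) and all 3 embryos below controls. Without *Tbr1/2* dKO replicate 1, an array of high meningeal markers, it was called (-0.95, adjusted p = 0.014). The docking adaptor gene *Gab2*, 1 of 11 adaptor genes, differed by -0.31 (adjusted p = 0.062), and *Fgf14*, 1 of 3 genes of intracellular FGF homologous factors, by -0.35 (adjusted p = 0.19). *Sdc2*, a co-receptor gene among 13 receptor and co-receptor genes, differed by 0.22 (adjusted p = 0.67), and *Elk3*, an ETS gene of the ternary complex factors, by -0.14 (adjusted p = 0.65). Of 13 early genes induced by ERK, none reached an unadjusted p under 0.05 in *Tbr1/2* dKO against control, where 12.3% of all genes did. Their median difference was 0.051 beside 0.011 over all genes, and the smallest p was that of *Phlda1* (0.26, adjusted p = 0.50). None reached that threshold in *Tbr2* cKO (10% of all genes), and 2, both higher, did in *Tbr1* KO (6.51%). Against *Tbr1* KO, 1 was lower at that threshold in *Tbr1/2* dKO (10.9% of all genes) and 2 in *Tbr2* cKO (12.5%). None of the 13 was called in these comparisons.

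**Figure D4:**
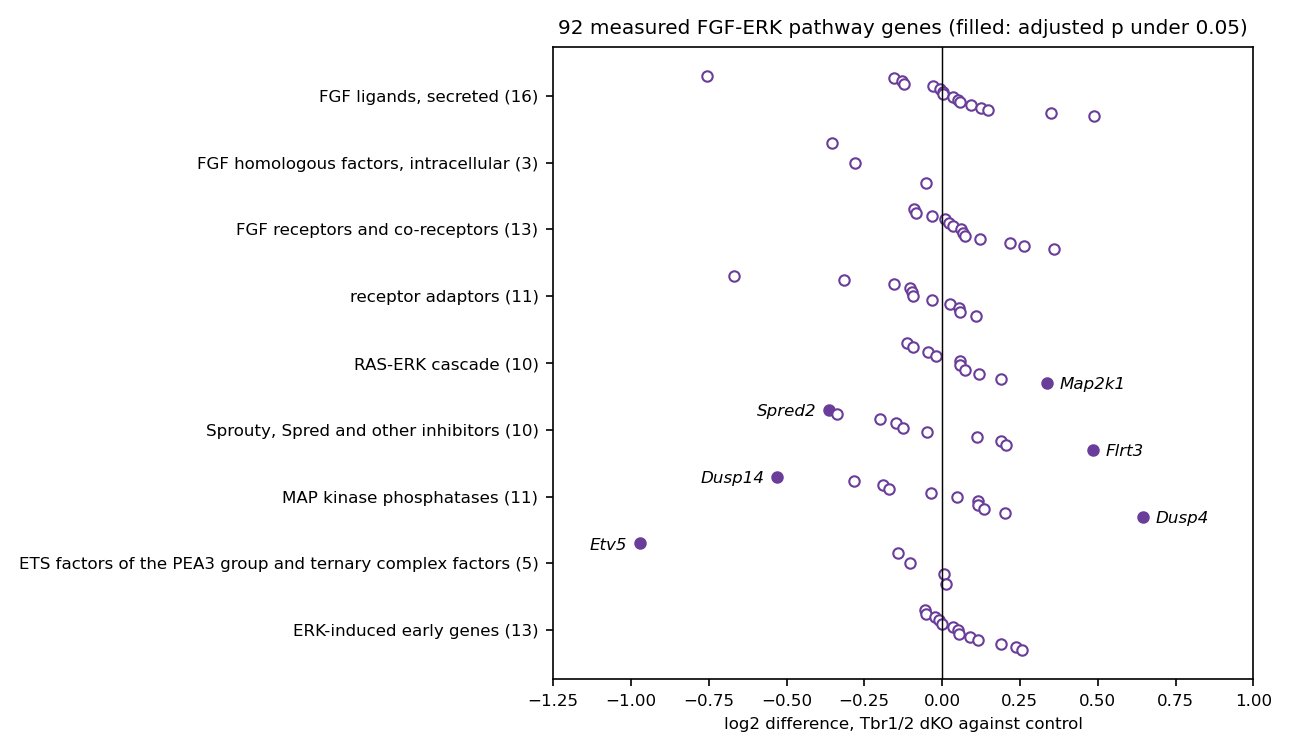
Log2 difference of *Tbr1/2* dKO from control (horizontal axis) for the 92 measured genes of the pathway lists, 1 point per gene, in rows by role with the number of genes in each; filled points have an adjusted p under 0.05. *Etv5* at -0.97 is the lowest point and *Dusp4* at 0.65 the highest, and most genes lie close to 0.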

How the data were processed

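RNA of E14.5 neocortex from 12 embryos, each an independent biological replicate per the study's methods, was hybridized to Affymetrix Mouse Exon ST arrays, 1 embryo and 1 channel each. The authors normalized the arrays by RMA with the oligo package (no version given in the sources used) and deposited log2 values per probeset, which show medians of 8.15 to 8.25 over the arrays. RMA equalizes the distributions of the arrays and compresses low signals, so differences of dim genes are understated. Raw intensities and background were not used here, so no detection call was made. Precision is set by how many arrays there are.

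Of 23332 probesets, 14996 had 1 gene symbol, 1019 several and 7317 none in the platform annotation. Where a gene had several probesets (135 genes), that of the highest mean was used, which left 14860 genes. The 10 genes, the pathway and marker lists and the tests were chosen with earlier results of these data known. Other pathway genes were named where called against controls or, in a list without such a gene, for the smallest p in Tbr1/2 dKO. For a gene of the 10 that was called, the 3 genes most correlated with it were named.

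Differences were tested with limma 3.58.1 in R 4.3.3, in 1 fit of the 4 genotypes over all 12 arrays (8 residual and 2.89 prior degrees of freedom), with Benjamini-Hochberg adjustment over 14860 genes. An unadjusted p under 0.05 was counted too, as the study's methods give a threshold of 0.05 and name no adjustment. Deviations from the group means of same-numbered embryos correlated with r = 0.18, 0.19 and 0.38 in the 3 pairs of *Tbr1* KO and *Tbr1/2* dKO, so the blocked values are given with that comparison. The labels do not say that the numbers mark a shared litter or day. Intervals are 95% intervals of limma for the difference between group means, and their width rests on the spread between embryos. Pairs of genes were tested by permutation in Python 3.11.15 with numpy 2.4.6 and plotted with matplotlib 3.10.9. The limma code was tested on simulated data. Alternatives were other probeset rules, normalizations, priors, array weights, a filter on dim genes, a replicate block, fits limited to the groups compared, marker means as covariates, other thresholds and leaving out each embryo. Leaving out both arrays of high meningeal markers was added after seeing the data. Correlations with an array's own group were 0.992 to 0.995. The sources used here give neither strain nor sex.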

Additional observations from a re-analysis of the deposited data

Results flagged for a closer look

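The 4 *Tbr1* KO values of *Dusp6* were 9.75, 9.86, 9.76 and 9.77. Replicate 2 stood apart, with a gap to the next value that made up 0.857 of the range of the group, above Dixon's critical value for 4 samples. The whole range is narrow, and chance sets apart about 1 in 20 such groups.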

How the results depend on the processing

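Of the calls among the 10 genes, that of *Etv5* in *Tbr1/2* dKO against control held under every alternative run. In *Tbr2* cKO against control the count was 0, and became 1 with dim genes left out, with the trended and robust prior and with only the compared groups in the fit, 2 with array weights (*Etv4* and *Etv5*) and 2 at an adjusted p under 0.1, with 0 to 1 over the left-out embryos (1 without *Tbr1/2* dKO replicate 2). In *Tbr1/2* dKO against control it was 1, and 2 with dim genes left out, with the trended and robust prior and at an adjusted p under 0.1, *Fgfr2* being added. In *Tbr1/2* dKO against *Tbr1* KO it was 1, and 0 with only the compared groups, with the replicate block and at an adjusted p under 0.01, with 0 to 2 over the left-out embryos. In *Tbr2* cKO against *Tbr1* KO it was 0, and 1 with array weights (*Etv5*) and with only the compared groups (*Dusp6*), with 0 to 1 over the left-out embryos. For any difference among the genotypes it was 1, and 2 with array weights.

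Over all genes, the counts of calls moved by more than 1.5 times as follows. For *Tbr1* KO against control, 92 became 186 with array weights and 56 with the replicate block, and 49 to 126 over the left-out embryos. For *Tbr2* cKO against control, 97 became 250 with array weights, 62 with only the compared groups, 52 with the block, 55 and 51 with the meningeal and the hem and choroid covariate, 27 without the arrays of high meningeal markers, and 28 to 154 over the left-out embryos. For *Tbr1/2* dKO against control, 462 became 228 with only the compared groups, and 258 to 446 over the left-out embryos. For *Tbr1/2* dKO against *Tbr1* KO, 185 became 66, 77 and 121 with only the compared groups, the block and without the meningeal arrays, and 97 to 175 over the left-out embryos. For *Tbr1/2* dKO against *Tbr2* cKO, 16 became 0, 2 and 8 under the same 3 settings, and 10 to 17 over the left-out embryos. For *Tbr2* cKO against *Tbr1* KO, 87 became 256 with array weights, and 53, 35 and 25 under those 3, and 26 to 146 over the left-out embryos. For any difference, 337 became 562 with array weights, 216 with the block and 203 without the meningeal arrays, and 207 to 366 over the left-out embryos. For the departure from the sum, 4 became 0 to 2 under 7 settings, and 1 to 6 over the left-out embryos.

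Same-numbered embryos deviated together with r over 0.1 in 6 of 15 pairs (-0.12 to 0.38), among them all 3 of *Tbr1* KO and *Tbr1/2* dKO, though *Tbr1/2* dKO replicate 1 correlated more with *Tbr1* KO replicate 2 (0.21) than with 1 (0.18). In the other comparisons the numbers were not taken to pair the embryos. With the replicate block, *Etv5* in *Tbr1/2* dKO against *Tbr1* KO was -0.80 (adjusted p = 0.062), and 0 of the 10 genes were called there. The block changed no other call among the 10 genes.

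No called difference changed sign. Small uncalled differences did, 70 values in 18 of 60 results, and the cause was not tested. With array weights these were *Fgfr3* (0.14) and *Spry4* (-0.078) in *Tbr1* KO against control, *Fgf15* in *Tbr1/2* dKO against control (-0.0015), *Spry4* in *Tbr1/2* dKO against *Tbr1* KO (0.033), *Fgfr3* (-0.045), *Fgf15* (-0.25) and *Dusp6* (0.18) in *Tbr1/2* dKO against *Tbr2* cKO, and *Spry2* in *Tbr2* cKO against *Tbr1* KO (0.0099). With arrays centred on their medians it was *Spry1* in *Tbr1* KO against control (-0.0035). Without the arrays of high meningeal markers these were *Spry4* in *Tbr2* cKO (-0.016) and *Fgfr1* in *Tbr1/2* dKO (-0.010) against control, and *Fgfr2* (-0.057), *Spry2* (0.00040) and *Spry4* (-0.052) in *Tbr2* cKO against *Tbr1* KO. With the hem and choroid covariate these were *Spry1* in *Tbr1* KO (-0.086) and *Fgfr1* in *Tbr1/2* dKO (-0.021) against control, *Fgf15* (-0.083) and *Dusp6* (0.084) in *Tbr1/2* dKO against *Tbr2* cKO, and *Spry2* in *Tbr2* cKO against *Tbr1* KO (0.0058). With the meningeal covariate these were *Spry1* in *Tbr1* KO (-0.0040), *Spry4* in *Tbr2* cKO (-0.040) and *Fgfr1* in *Tbr1/2* dKO (-0.013) against control, *Fgf15* (-0.0076) and *Dusp6* (0.032) in *Tbr1/2* dKO against *Tbr2* cKO, and *Spry4* in *Tbr2* cKO against *Tbr1* KO (-0.051). With quantile normalization repeated these were *Spry1* in *Tbr1* KO against control (-0.012) and *Spry4* in *Tbr2* cKO against *Tbr1* KO (-0.0066). With the replicate block these were *Spry1* in *Tbr1* KO (-0.12) and *Spry4* in *Tbr2* cKO (-0.034) against control, *Fgfr3* (-0.071), *Spry1* (-0.020) and *Spry2* (0.034) in *Tbr1/2* dKO against *Tbr2* cKO, and *Fgfr2* (-0.013) and *Spry4* (-0.12) in *Tbr2* cKO against *Tbr1* KO.

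Leaving out single embryos gave ranges that cross 0 in *Tbr1* KO against control for *Fgfr3* (-0.15 to 0.14), *Spry1* (-0.12 to 0.12) and *Spry4* (-0.037 to 0.15), in *Tbr2* cKO against control for *Spry4* (-0.016 to 0.17), and in *Tbr1/2* dKO against control for *Fgf15* (-0.042 to 0.83), *Fgfr1* (-0.042 to 0.079) and *Spry4* (-0.13 to 0.067). They did so in *Tbr1/2* dKO against *Tbr1* KO for *Fgfr1* (-0.11 to 0.0076), and against *Tbr2* cKO for *Dusp6* (-0.22 to 0.27), *Etv5* (-0.27 to 0.0051), *Fgf15* (-0.32 to 0.56), *Fgfr3* (-0.085 to 0.20), *Spry1* (-0.0090 to 0.20) and *Spry2* (-0.15 to 0.059). In *Tbr2* cKO against *Tbr1* KO they did so for *Fgfr2* (-0.057 to 0.12), *Spry2* (-0.21 to 0.015) and *Spry4* (-0.054 to 0.097). Leaving out a *Tbr2* cKO embryo leaves 1, which is assumed to vary like the other groups. A fit of only the compared groups could not be made for the departure from the sum and for any difference. With dim genes left out, *Etv4*, *Fgf15*, *Spry2* and *Spry4* have no value.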
